A study of Homo sapiens with 9 samples.

Results

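Transcripts of 8 voltage-gated sodium channel genes were followed in spinal cord organoids (SCOs) exposed to VPA with or without Rapamycin. The genes are 5 pore-forming alpha subunits (SCN1A, SCN2A, SCN3A, SCN8A and SCN9A) and 3 beta subunits (SCN2B, SCN3B and SCN4B), of 26871 genes listed in all 3 deposited tables. They were chosen by name with the difference in SCN1A between VPA and vehicle already known, so for VPA against vehicle their values are given as a description with no p-value, while the comparisons with Rapamycin were tested. Those tests use the same VPA or vehicle libraries that guided the choice. All 8 genes passed the filter on low counts in each comparison, SCN2B only through the treated libraries where vehicle was compared.

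Bulk messenger RNA was sequenced in 9 libraries, 3 per condition. The conditions are vehicle (FGF alone), VPA (valproic acid, an anti-seizure drug that inhibits histone deacetylases and is known to act on sodium channels) and VPA+Rapamycin (Rapamycin inhibits the mTOR kinase), with exposure given as 96 h in the labels and as a shorter time in the study's text. The SCOs were grown from the WTC induced pluripotent stem cell line, which the labels call wild type and which the study had edited to carry a reporter at SOX10. The study describes sequencing of organoids pooled per clone, from 3 clones, C2, C36 and C40. Same-numbered libraries carry the same name prefix in all 3 conditions, and the labels do not tie a prefix to a clone. The main tests treated the libraries as unpaired, and their p-values measure the spread between these libraries of a single parental line.

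Voltage-gated sodium channels carry the fast inward current of the action potential. The alpha subunit forms the pore, the voltage sensors and the inactivation gate, and beta subunits alter gating and place the channel at the membrane. During neural development SCN3A is an early alpha subunit, SCN2A and SCN8A are the main alpha subunits of the axon initial segment, SCN1A is best known from inhibitory neurons and SCN9A from peripheral sensory and sympathetic neurons.

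The libraries held between 15290299 and 17417338 counts. A total of 3 counts, the lowest level read here as signal, was worth 0.172 to 0.196 per 1000000 reads of the unscaled library total. CPM are a gene's reads per 1000000 reads of the library total, scaled by TMM. Neuron markers were abundant, as 13 of them summed to between 1720 and 3318 CPM in a library. The vehicle libraries were the least alike, with neuron marker sums of 1852, 2448 and 3318 CPM against 1720 to 1862 CPM with VPA and 1821 to 2026 CPM with VPA+Rapamycin. Sums for the 8 mesenchymal markers were 166 to 329 CPM in vehicle, 614 to 766 CPM with VPA and 295 to 414 CPM with VPA+Rapamycin. In such bulk samples fewer cells of a type and less RNA per cell cannot be told apart.

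The alpha subunits are close paralogs. Along the whole protein SCN1A was 88.4% identical to SCN2A, 85.3% to SCN3A, 78.6% to SCN8A and 78.0% to SCN9A. Exact matches of 100 bases between transcripts, a different measure, were few. Of the 100-base stretches in SCN1A transcripts of GENCODE v29 0.476% occur in another family gene, and the share was 1.01% for SCN9A, 1.28% for SCN2A and 1.86% for SCN3A. The 3 beta subunit genes and SCN8A shared none.

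SCN1A had the largest ratio between condition means among the 8 genes. The gene lies on chr2:165984641-166149214, minus strand. Vehicle libraries held 30, 33 and 24 counts (1.78, 2.17 and 1.49 CPM), VPA libraries 573, 497 and 592 (34.2, 30.7 and 33.6 CPM) and VPA+Rapamycin libraries 334, 244 and 307 (19.9, 14.2 and 19.3 CPM). The 3 conditions did not overlap, and VPA+Rapamycin sat between the other two. Mean levels were 1.81 ± 0.345 CPM in vehicle, 32.8 ± 1.91 with VPA and 17.8 ± 3.13 with VPA+Rapamycin (SD, n = 3 each), so the VPA mean was 18.1-fold that of vehicle, a log2 difference of 4.17 ± 0.19 (SE).

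With Rapamycin added, SCN1A fell. Its log2 fold change against VPA was -0.88 ± 0.12 (SE; adjusted p = 0.00034 by edgeR's quasi-likelihood test with Benjamini-Hochberg adjustment), and the VPA+Rapamycin mean was 0.542 of the VPA mean. It stayed far above vehicle, by 9.83-fold in the means and a log2 fold change of 3.29 ± 0.23 (SE; adjusted p = 4.49e-05, same test). Leaving out any single library kept both calls, with log2 fold changes of -0.97 to -0.74 against VPA and 3.17 to 3.43 against vehicle. The summed mesenchymal markers were also highest with VPA, and their ranges in vehicle and VPA+Rapamycin overlapped. Of the markers tested, 3 of 7 rose with VPA (16.4% of all genes were called higher there), 4 of 7 fell when Rapamycin was added (3.73% lower) and 1 of 6 rose with VPA+Rapamycin against vehicle (9.81% higher). Others had differences in the other direction that did not pass, such as PRRX1 with VPA (-0.43) and LUM and TWIST1 with VPA+Rapamycin against vehicle (-0.96 and -0.92). DCN, PRRX1 and TWIST1 were at 0 counts in at least 1 vehicle library. The part of these markers in the result was not tested.

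SCN9A, the neighbour of SCN1A on chromosome 2 and the alpha subunit of pain-sensing neurons, had the same order of conditions with a smaller span. Counts were 25, 34 and 30 in vehicle, 228, 269 and 215 with VPA, and 184, 168 and 179 with VPA+Rapamycin. The lowest VPA library was above the highest VPA+Rapamycin library (12.2 against 11.3 CPM), and every vehicle library was at or below 2.24 CPM. The means were 1.86 ± 0.38, 14.1 ± 2.24 and 10.7 ± 0.787 CPM (SD, n = 3 each), and VPA was 7.61-fold above vehicle, a log2 difference of 2.92 ± 0.24 (SE). Against VPA the log2 difference of VPA+Rapamycin was -0.40 ± 0.15 (SE; 95% interval -0.70 to -0.10; adjusted p = 0.129 by edgeR's quasi-likelihood test), which did not pass the threshold of 0.05 over all genes although the libraries did not overlap. Against vehicle SCN9A rose with VPA+Rapamycin by a log2 fold change of 2.51 ± 0.24 (SE; adjusted p = 0.000201, same test).

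The other 3 alpha subunits showed no such separation. SCN3A, the embryonic alpha subunit, had 414, 673 and 1020 counts in vehicle, 727, 892 and 867 with VPA, and 757, 763 and 1060 with VPA+Rapamycin. The vehicle libraries alone ran from 24.5 to 63.1 CPM, wider than the other conditions, and all 3 conditions overlapped. Log2 differences of SCN3A were 0.15 ± 0.26 for VPA against vehicle, 0.08 ± 0.13 for VPA+Rapamycin against VPA and 0.23 ± 0.28 for VPA+Rapamycin against vehicle (SE), and the 2 tested ones did not pass (adjusted p = 0.769 and 0.604, edgeR's quasi-likelihood test). Their 95% intervals were -0.17 to 0.34 and -0.32 to 0.79.

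SCN8A, the subunit of the mature initial segment and nodes of Ranvier, was the most even of the alpha genes. It had 572, 592 and 700 counts in vehicle, 464, 597 and 545 with VPA, and 636, 520 and 627 with VPA+Rapamycin. The VPA mean was 0.822 of the vehicle mean, a log2 difference of -0.29 ± 0.15 (SE), and the ranges overlapped. VPA+Rapamycin differed from VPA by 0.17 ± 0.12 and from vehicle by -0.12 ± 0.15 on the log2 scale (SE; adjusted p = 0.434 and 0.606, edgeR's quasi-likelihood test), with 95% intervals of -0.06 to 0.41 and -0.41 to 0.17.

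SCN2A was scarce, with 22, 53 and 30 counts in vehicle, 29, 19 and 43 with VPA, and 47, 32 and 52 with VPA+Rapamycin. The ranges of the 3 conditions overlapped. VPA+Rapamycin differed by 0.56 ± 0.35 from VPA and by 0.25 ± 0.40 from vehicle (log2, SE; adjusted p = 0.384 and 0.704, edgeR's quasi-likelihood test). SCN2A overlaps SCN3A over 9075 bases on the opposite strand. SCN3A had a mean count of 797 against 36.3 for SCN2A, and the use of strand in counting is not given in the sources used here, so some SCN2A counts may belong to SCN3A.

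**Figure D1:**
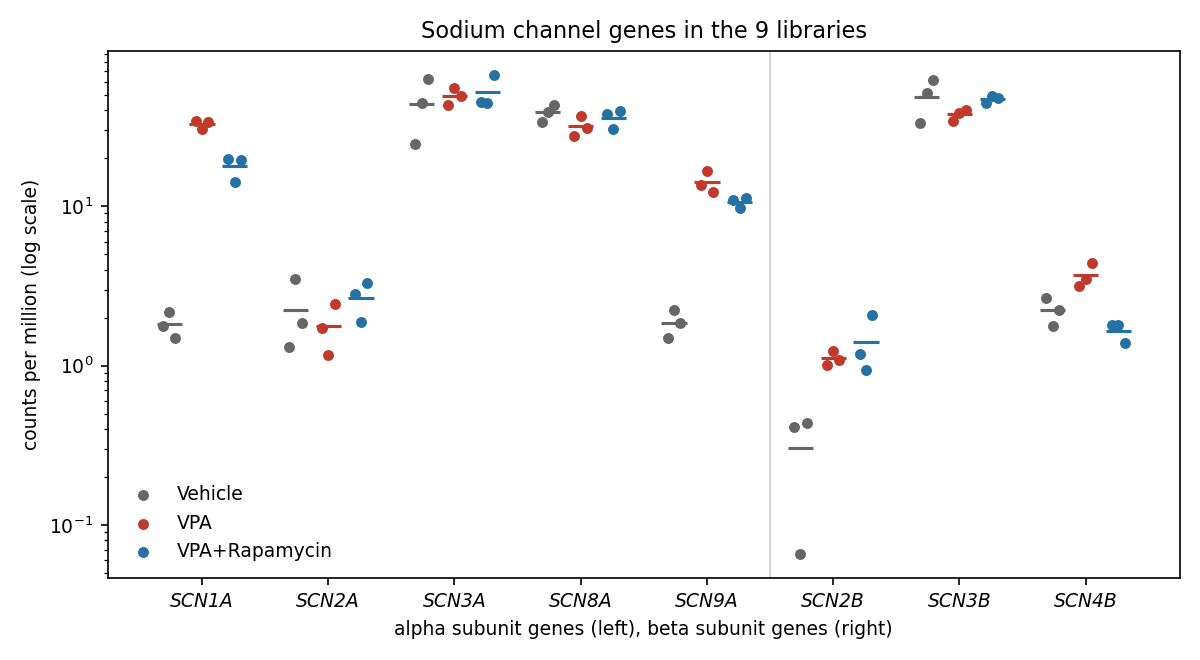
Level of each of the 8 genes in CPM (log scale), with a point per library, a bar at the mean of each condition and the 3 conditions side by side. SCN1A and SCN9A are between 1.48 and 2.24 CPM in vehicle and separate by condition, while SCN3A, SCN8A and SCN3B lie between 24.5 and 66.8 CPM in all 9 libraries.

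Among the beta subunits, SCN2B was near the limit of detection in vehicle. This beta subunit, which is bound to alpha subunits through a disulfide bridge, had 7, 1 and 7 counts in vehicle, 17, 20 and 19 with VPA, and 20, 16 and 33 with VPA+Rapamycin. The second vehicle library, at 0.0659 CPM, was under the 3-count floor, and no vehicle library overlapped the treated ones. Against vehicle, SCN2B passed the low-count filter only through the treated libraries, where it was high. Its call there is therefore not read as support. The VPA mean was 3.64-fold the vehicle mean, a log2 difference of 1.81 ± 0.59 (SE). SCN2B rose with VPA+Rapamycin against vehicle by 2.14 ± 0.62 (log2, SE; adjusted p = 0.0345, edgeR's quasi-likelihood test) and differed from VPA by 0.33 ± 0.43 (adjusted p = 0.706, same test). The call against vehicle was lost without any of 4 libraries, the second vehicle library or each of the VPA+Rapamycin libraries, with adjusted p from 0.0644 to 0.154 (edgeR's quasi-likelihood test).

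SCN3B, the most abundant of the 3 beta subunits and linked to alpha subunits without a disulfide bond, had 560, 776 and 1000 counts in vehicle, 577, 626 and 710 with VPA, and 745, 843 and 758 with VPA+Rapamycin. Every VPA+Rapamycin library (44.3 to 49.1 CPM) was above every VPA library (34.5 to 40.3 CPM), and the vehicle libraries spanned both, from 33.1 to 61.9 CPM. SCN3B rose with VPA+Rapamycin against VPA by 0.32 ± 0.09 (log2, SE; adjusted p = 0.0494, edgeR's quasi-likelihood test), just inside the threshold. The call was lost in 5 of the 6 fits without a library, with adjusted p from 0.0559 to 0.204 (same test), and in a fit of all 9 libraries together (adjusted p = 0.468). With the replicate number as a block it was 0.0546. Against vehicle the difference was -0.06 ± 0.19 (log2, SE; adjusted p = 0.86, same test).

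SCN4B, which can supply the blocking particle of resurgent sodium current, had 45, 27 and 36 counts in vehicle, 53, 57 and 78 with VPA, and 30, 31 and 22 with VPA+Rapamycin. VPA libraries (3.17 to 4.43 CPM) were above all others, and VPA+Rapamycin libraries (1.39 to 1.81 CPM) overlapped only with the lowest vehicle library. The VPA mean was 1.67-fold that of vehicle, a log2 difference of 0.72 ± 0.30 (SE). SCN4B fell with VPA+Rapamycin against VPA by 1.15 on the log2 scale (SE 0.30; adjusted p = 0.0249, edgeR's quasi-likelihood test), and differed from vehicle by -0.43 ± 0.34 (adjusted p = 0.403, same test). The call against VPA was lost without VPA library 2, VPA library 3 or VPA+Rapamycin library 3, with adjusted p from 0.0699 to 0.109 (same test), and in a fit of all 9 libraries (adjusted p = 0.0959).

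In VPA against vehicle 32.1% of all genes tested were called at an adjusted p of 0.05, 16.4% higher and 15.7% lower. The count among the 8 genes was 3, and nothing is read from it, because this comparison guided the choice of the genes. In VPA+Rapamycin against VPA, 3 of 8 were called, SCN1A and SCN4B lower and SCN3B higher, where 6.74% of all genes were called, 3.01% higher and 3.73% lower. The fit of all 9 libraries called 1 of the 8, SCN1A. In VPA+Rapamycin against vehicle, 3 of 8 were called, SCN1A, SCN9A and SCN2B, all higher, where the share of all genes was 19%, with 9.81% higher and 9.22% lower. SCN2B entered this test only through the VPA+Rapamycin libraries. The median log2 difference of the 8 genes was 0.13 against VPA and 0.24 against vehicle, beside 0.00391 and -0.000873 over all genes tested.

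**Figure D2:**
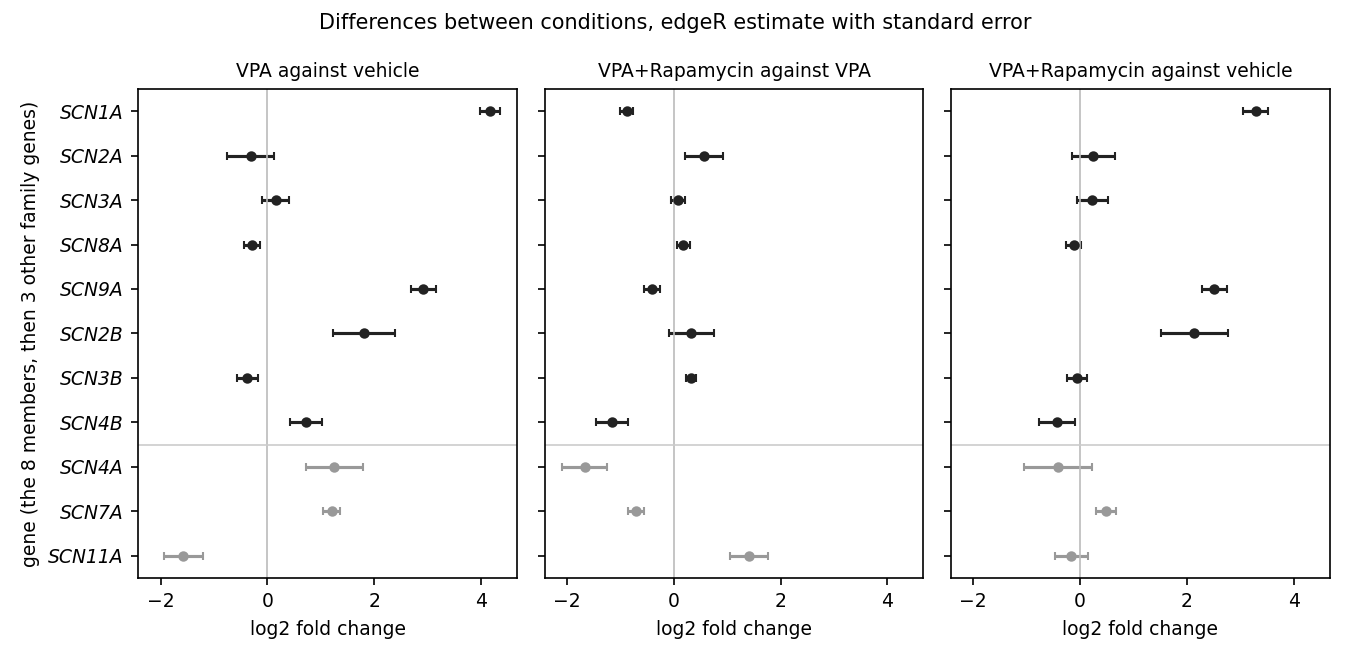
Log2 fold change with its standard error from edgeR in the 3 comparisons, for the 8 genes (black) and SCN4A, SCN7A and SCN11A of the same family (grey). SCN1A and SCN9A lie above 2 in both comparisons with vehicle, and SCN11A lies at -1.57 in VPA against vehicle and at 1.41 in VPA+Rapamycin against VPA.

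Levels of different genes were compared per length, as the authors' FPKM. The lengths used were 23695 bases for SCN2A, 16946 for SCN1A and 9840 for SCN3A, although their coding sequences hold 6018, 6030 and 6003 bases. A longer length gives a lower FPKM for the same count, so levels and shares between genes depend on these lengths. In vehicle SCN3A (4.47 ± 2.00 FPKM) and SCN8A (2.59 ± 0.337) stood above SCN9A (0.135 ± 0.0277), SCN1A (0.107 ± 0.0198) and SCN2A (0.0934 ± 0.0478; SD, n = 3). The last 3 were not separated by more than their spread. With VPA, SCN1A reached 1.92 ± 0.112 FPKM, within the range of SCN8A (1.84 to 2.44 FPKM), and SCN9A reached 1.02 ± 0.161, while SCN2A remained at 0.0744 ± 0.0266. Among the beta subunits SCN3B led in every condition, with 5.15 ± 1.57 FPKM in vehicle, 3.95 ± 0.313 with VPA and 4.91 ± 0.249 with VPA+Rapamycin.

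The makeup of the alpha transcripts differed accordingly. Of the FPKM summed over the 9 measured family genes of the alpha type, SCN1A held 1.27% ± 0.422 in vehicle, 14.6% ± 1.61 with VPA and 9.04% ± 1.16 with VPA+Rapamycin (SD, n = 3). SCN9A held 1.56% ± 0.317, 7.74% ± 1.06 and 6.73% ± 0.709. SCN8A held 29.9% ± 4, 16.0% ± 1.5 and 20.7% ± 1.66. The SCN8A share of every VPA library (14.9% to 17.7%) was under that of every VPA+Rapamycin library (19.1% to 22.4%) although its own level did not pass the test, because a share also moves with the other genes in the sum.

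SCN3A held 48.7% ± 10.3, 37.6% ± 2.39 and 45.1% ± 4.31 of the alpha sum, and SCN2A never more than 1.66% in a library. The shares in VPA+Rapamycin against VPA gave p = 0.1 for SCN1A, SCN2A, SCN3A and SCN8A and with p = 0.3 for SCN9A (two-sided exact permutation tests, n = 3 each). The smallest p this design can give is 0.1, so none can pass 0.05. The summed alpha FPKM was 8.87 ± 2.3 in vehicle, 13.1 ± 0.741 with VPA and 11.5 ± 2.02 with VPA+Rapamycin. The last of these overlapped both (exact permutation p = 0.3 each, n = 3).

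**Figure D3:**
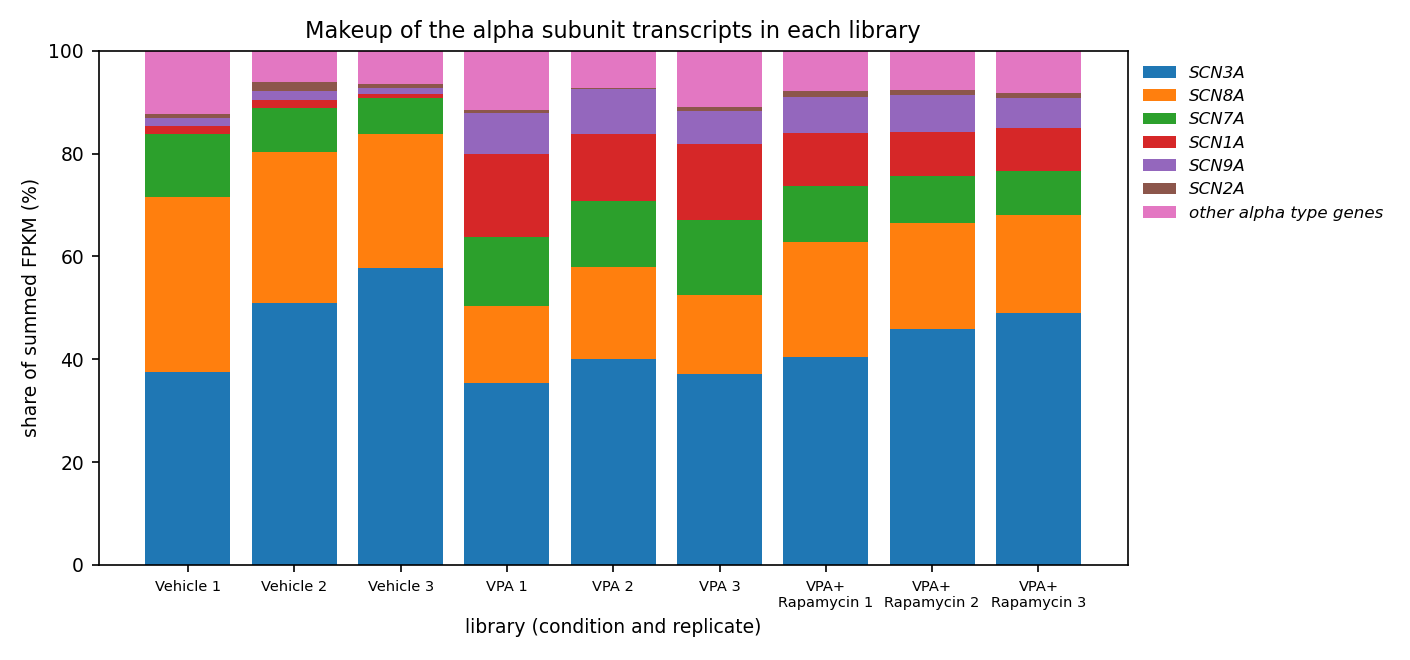
Share of each alpha type gene in the summed FPKM of these genes, a stacked bar from 0 to 100% for each of the 9 libraries, with the less abundant genes outside the 8 drawn together. SCN1A holds 0.789% to 1.58% in vehicle libraries, 13% to 16.2% in VPA libraries and 8.24% to 10.4% in VPA+Rapamycin libraries.

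Of the other alpha type genes, SCN7A, SCN11A and SCN4A are described. SCN7A, an atypical sodium channel gene next to SCN9A, had 125, 105 and 114 counts in vehicle, 254, 266 and 315 with VPA, and 187, 142 and 172 with VPA+Rapamycin. It rose with VPA (1.20 ± 0.16, adjusted p = 0.000371) and fell with Rapamycin added (-0.71 ± 0.15, adjusted p = 0.00822; edgeR's quasi-likelihood test). SCN11A, a channel of sensory neurons, went the other way. It had 33, 44 and 53 counts in vehicle, 15, 16 and 15 with VPA, and 39, 41 and 41 with VPA+Rapamycin, falling by 1.57 on the log2 scale with VPA (SE 0.37, adjusted p = 0.00819) and rising by 1.41 ± 0.36 when Rapamycin was added (adjusted p = 0.0249, same test). In a fit of all 9 libraries neither SCN7A nor SCN11A was called in VPA+Rapamycin against VPA (adjusted p = 0.0684 and 0.0748), and SCN11A was lost there without any library but the first of VPA+Rapamycin (adjusted p from 0.0595 to 0.1).

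SCN4A, the skeletal muscle alpha subunit, varied several-fold within each condition, with 63, 9 and 34 counts in vehicle, 112, 40 and 112 with VPA, and 23, 11 and 46 with VPA+Rapamycin. The library numbered 2 was the lowest in every condition. Within each number the VPA library was above the vehicle library and the VPA+Rapamycin library below the VPA library. VPA against vehicle did not pass (1.25 ± 0.53, adjusted p = 0.0929, edgeR's quasi-likelihood test) and passed with a replicate block (1.40, adjusted p = 0.00597). SCN4A fell with Rapamycin added (-1.67 ± 0.42, adjusted p = 0.0231, edgeR's quasi-likelihood test), although the ranges overlapped. The call was lost in a fit of all 9 libraries (adjusted p = 0.225) and without VPA library 1, VPA library 3 or VPA+Rapamycin library 2 (adjusted p from 0.0626 to 0.102). The 6 measured muscle markers summed to 6.38 to 15.7 CPM in vehicle, 19.6 to 24.1 with VPA and 10.3 to 11.8 with VPA+Rapamycin. Of those tested, 2 of 4 rose with VPA, where 16.4% of all genes were called higher. One of them, MYOD1, had 0 to 1 counts in vehicle and was tested there only through the VPA libraries. With Rapamycin added 2 of 4 fell, where 3.73% were called lower. MYH3 had differences in the other direction that did not pass (-0.82 and 0.63). In libraries 1, 2 and 3 the sums were 15.7, 9.94 and 6.38 CPM in vehicle and 23.4, 19.6 and 24.1 with VPA. With VPA+Rapamycin they were 11.7, 11.8 and 10.3 CPM. Library 2 had the lowest sum with VPA, as for SCN4A, and not in the other conditions. The part of these markers in the result was not tested.

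SCN1A, SCN2A, SCN3A, SCN7A and SCN9A lie within 1407 kb on chromosome 2. Of these, the 3 at the higher coordinates (SCN1A, SCN9A and SCN7A) were higher with VPA, and the pair at the other end (SCN3A and SCN2A) was not separated from vehicle. A window reaching 500 kb past the cluster on each side holds 6 further protein-coding genes. TTC21B, which encodes a transport protein of cilia and starts between SCN3A and SCN1A, did not pass with VPA (-0.28 ± 0.13, adjusted p = 0.105, edgeR's quasi-likelihood test). Without the first vehicle library it was called (-0.38, adjusted p = 0.0145), as was CSRNP3 (-0.45, adjusted p = 0.00382).

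No call was made with VPA for GALNT3 either, a glycosyltransferase gene (0.65 ± 0.45, adjusted p = 0.292), for CSRNP3 with all libraries, which encodes a nuclear protein (-0.27 ± 0.16, adjusted p = 0.238), or for COBLL1 (-0.60 ± 0.49, adjusted p = 0.371; same test). GRB14, an adaptor of receptor tyrosine kinases at the SCN3A end of the window, was the exception. It had 7, 2 and 6 counts in vehicle, 83, 33 and 44 with VPA, and 18, 28 and 21 with VPA+Rapamycin, and rose with VPA by 3.31 ± 0.53 (log2, SE; adjusted p = 0.00103, same test). GRB14 passed the low-count filter there only through the VPA libraries. XIRP2 had too few counts to be tested.

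**Figure D4:**
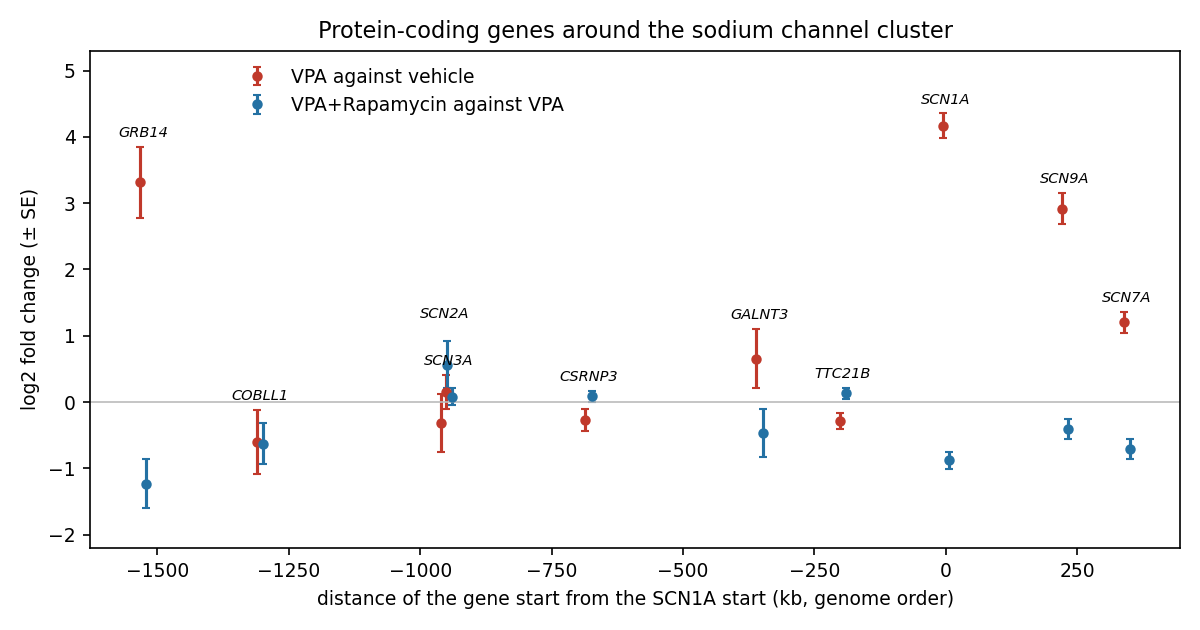
Log2 fold change with its standard error (vertical axis) of the tested protein-coding genes around the chromosome 2 cluster, against the distance of each gene start from the SCN1A start in kb. SCN1A, SCN9A, SCN7A and GRB14 are at 1.20 or above in VPA against vehicle and below 0 in VPA+Rapamycin against VPA, and TTC21B, CSRNP3 and SCN3A lie near 0 in both.

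SCN1A and SCN9A have unlike start regions. RefSeq windows on GRCh38.p14, from 250 bases before to 50 after an annotated start, were found for 6 of the 8 genes. The SCN1A windows held 3 and 2 CpG dinucleotides and the SCN9A window 28, against a median of 14 over 35116 windows, and SCN8A was near the top of that distribution with 52. The parts of the upstream sequence that hold no annotated exon are shown for the SCN1A start inside the annotated gene and for SCN9A, the members with the widest difference from vehicle, with CpG in capitals.
SCN1A, chr2:166128048-166128270, minus strand: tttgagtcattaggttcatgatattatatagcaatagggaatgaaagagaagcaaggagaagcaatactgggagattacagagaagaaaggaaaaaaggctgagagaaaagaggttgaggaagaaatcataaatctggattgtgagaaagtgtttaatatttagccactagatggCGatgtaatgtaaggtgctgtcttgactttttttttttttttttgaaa
SCN9A, chr2:166376002-166376194, minus strand: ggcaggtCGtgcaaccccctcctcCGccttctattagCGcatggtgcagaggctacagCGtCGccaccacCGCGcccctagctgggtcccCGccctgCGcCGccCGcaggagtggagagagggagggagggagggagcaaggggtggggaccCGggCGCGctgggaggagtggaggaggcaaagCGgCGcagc

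Motifs were searched on both strands as exact letters. The AP-1 site TGACTCA was found in that SCN1A window and in no other member's window, and 4.95% of all windows held it. The GC box GGGCGG occurred 2 times each in the SCN9A and SCN4B windows and 10 times in that of SCN8A, and 45% of all windows held it. The windows of SCN1A, SCN2A and SCN2B held none. These are descriptions of letters, and binding was not measured.

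Across the 9 libraries the genes most like SCN1A, by Pearson's r of log2 CPM among 16734 genes, were CLIC6 (r = 0.994), EDA (0.992), GABRB2 (0.992), GCH1 (0.991) and SUSD4 (0.991). For SCN9A they were GGH (0.996), SMARCA2 (0.996) and WARS (0.995), and SCN1A and SCN9A correlated with each other at r = 0.987. These libraries fall into conditions that separate both genes, so r mainly ranks genes by how they follow the conditions. The genes most like SCN3A were LRRIQ1 (0.983), SSH2 (0.982) and MYCBP2 (0.97), and those most like SCN3B were DCC (0.964), GFRA1 (0.96) and CCDC146 (0.959). For SCN8A they were EIF4G3 (0.949), INVS (0.948) and SMIM10L1 (0.946), and for SCN2A SAXO2 (0.916), GEN1 (0.907) and LINC02538 (0.9). For SCN2B they were AC006449.6 (0.986), LNX2 (0.971) and EFNB3 (0.968). For SCN4B they were ZPR1 (0.953), FOSB (0.943), a subunit of the AP-1 factor, and PITHD1 (0.937).

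Levels of SCN3A, SCN3B and SCN8A were lowest in the first vehicle library and highest in the third among the vehicle libraries, as was the neuron marker sum. SCN3A was at 24.5 and 63.1 CPM and SCN3B at 33.1 and 61.9 CPM in these libraries, while SCN1A was at 1.78 and 1.49 CPM. Per 1000 CPM of neuron markers, a scale chosen after the data were seen, SCN3B was at 17.9 to 20.9 CPM in vehicle, 18.5 to 22.7 with VPA and 23.6 to 27.0 with VPA+Rapamycin. On this scale SCN3A was lower in every vehicle library (13.2 to 19.0) than with VPA (23.3 to 32.0) or VPA+Rapamycin (24.2 to 33.0), a separation that was absent in CPM (exact permutation p = 0.1 for VPA+Rapamycin against vehicle, the smallest possible). SCN1A kept its order, at 0.448 to 0.958 in vehicle, 17.8 to 18.9 with VPA and 7.80 to 10.7 with VPA+Rapamycin.

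**Figure D5:**
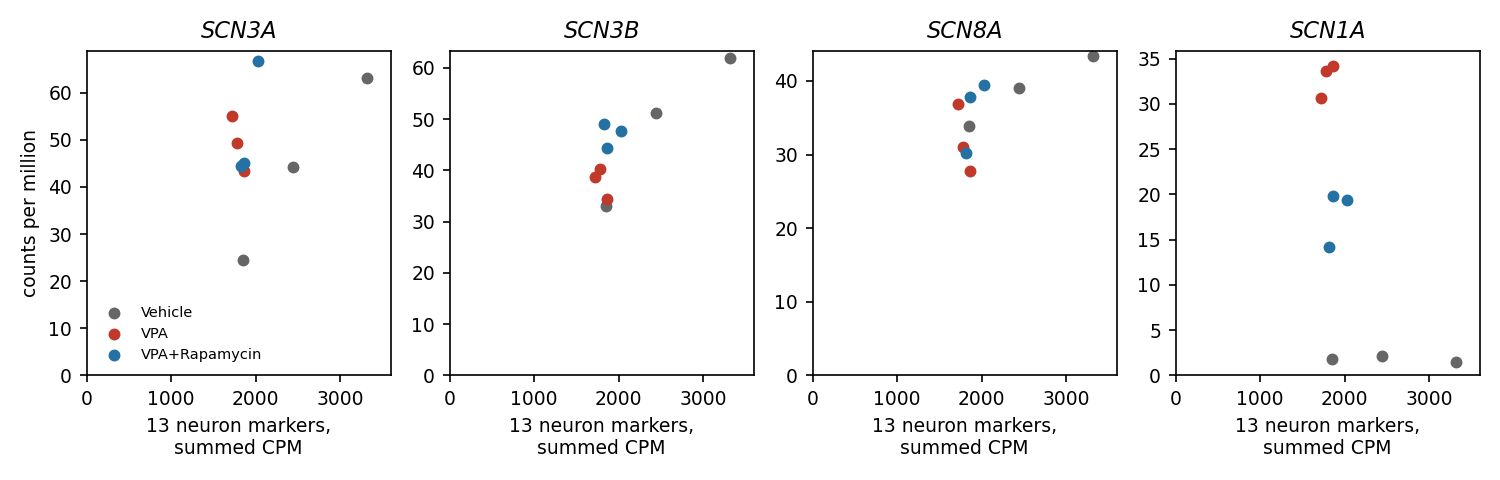
Level in CPM (vertical axis) of SCN3A, SCN3B, SCN8A and SCN1A against the summed CPM of 13 neuron markers, with a point per library coloured by condition. The vehicle libraries spread from 1852 to 3318 CPM of markers, and SCN3A, SCN3B and SCN8A are higher where that sum is higher in vehicle, while SCN1A separates by condition.

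Genes that work with these channels moved in part. Of the regulators of sodium channel transcription and splicing, 0 of 13 were higher and 6 lower with VPA (4 to 8 without 1 library), where 16.4% of all genes were called higher and 15.7% lower. CELF4, an RNA-binding protein of neurons (-1.77 ± 0.20, adjusted p = 0.000152), SRRM4, a neuronal splicing factor that also controls REST (-1.28 ± 0.15, adjusted p = 0.000197), and PTBP2, a repressor of exons in neurons (-0.66 ± 0.12, adjusted p = 0.00216), fell with VPA, as did NOVA1, a neuronal splicing factor (-0.70 ± 0.16, adjusted p = 0.0068; edgeR's quasi-likelihood test). REST itself was also called lower with VPA (-0.37 ± 0.12, adjusted p = 0.0371), as was RCOR1 (-0.29 ± 0.095, adjusted p = 0.0387, same test). Both were named after their values were seen, and their calls without single libraries are not given. With Rapamycin added 3 of 12 tested were higher than with VPA (1 to 3 without 1 library) and 1 lower (0 to 1), where 3.01% of all genes were called higher and 3.73% lower. PTBP2 rose by 0.48 ± 0.08 (adjusted p = 0.001), CELF4 by 0.69 ± 0.16 (adjusted p = 0.0139) and SRRM4 by 0.49 ± 0.12 (adjusted p = 0.0209, same test), and the lower one, named after its value was seen, was MBNL1 (-0.35 ± 0.10, adjusted p = 0.0442). The MBNL1 call was lost in a fit of all 9 libraries (adjusted p = 0.308), with a replicate block (0.0559) and without any library but the first of VPA+Rapamycin (0.0906 to 0.153). In a fit of all 9 libraries PTBP2, CELF4 and SRRM4 were not called (adjusted p = 0.076, 0.116 and 0.127), and CELF4 and SRRM4 were also lost without the first VPA library (adjusted p = 0.077 and 0.0822) or the second (0.0775 and 0.132), and SRRM4 without the third VPA+Rapamycin library (0.0743). The list's median log2 difference was -0.44 with VPA and 0.06 with Rapamycin added. Of the neuron markers 6 of 13 fell with VPA and 0 rose, beside 15.7% and 16.4% of all genes, and their part in the result was not tested.

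Of the 15 intracellular partners and initial segment genes, 4 of 14 tested rose and 1 fell with VPA (2 to 5 and 0 to 3 without 1 library). The 5 called are a share near that of all genes, of which 32.1% were called. GPD1L, which modulates sodium current (1.56 ± 0.22, adjusted p = 0.000423) and CNTN1, a cell adhesion partner of beta subunits (0.75 ± 0.22, adjusted p = 0.0221) rose, and NFASC, an organiser of the initial segment, fell (-0.46 ± 0.13, adjusted p = 0.0164; edgeR's quasi-likelihood test). The NFASC call was lost without the first or second VPA library (adjusted p = 0.0576 and 0.097), and that of CNTN1 without vehicle library 2, VPA library 2 or VPA library 3 (adjusted p from 0.0669 to 0.085). With Rapamycin added 0 of 15 rose against VPA (0 to 1 without 1 library) and 1 fell (0 to 1), beside 3.01% and 3.73% of all genes. The lower one was FGF13 (-0.28 ± 0.07, adjusted p = 0.0288), named after its value was seen. Its call was lost in a fit of all 9 libraries (adjusted p = 0.216), with a replicate block (0.0558) and without VPA library 1, VPA library 2 or VPA+Rapamycin library 1 (0.078 to 0.141). Against vehicle, 4 of 15 rose with VPA+Rapamycin and 0 fell (1 to 4 and 0 to 1 without 1 library), beside 9.81% and 9.22% of all genes.

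In the complex of the sodium leak channel NALCN, which sets the resting membrane potential, 2 of 5 tested rose (2 to 3 without 1 library) and 1 fell with VPA, beside 16.4% and 15.7% of all genes. The auxiliary subunit genes FAM155B (1.16 ± 0.17, adjusted p = 0.000522) and UNC80 (0.75 ± 0.15, adjusted p = 0.00361) rose and UNC79 fell (-0.95 ± 0.18, adjusted p = 0.00255; edgeR's quasi-likelihood test). With Rapamycin added 0 of 5 passed against VPA (0 to 1 without 1 library), where the log2 differences ran from -0.12 to 0.40.

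Of 6 genes of the sodium pump, which restores the gradient that the channels use, 0 rose (0 to 2 without 1 library) and 2 fell with VPA, a share near the 32.1% of all genes called. They were the beta subunits ATP1B2 (-0.68 ± 0.11, adjusted p = 0.00138) and ATP1B1 (-0.66 ± 0.15, adjusted p = 0.0067; edgeR's quasi-likelihood test). These lists were described by their counts, and no test of a list as a whole was made.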

How the data were processed

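Poly(A) RNA of 9 SCO libraries was compared, 3 per condition. The authors deposited 3 tables, each with raw read counts and FPKM of 6 libraries, made with HISAT2 2.0.5 and featureCounts 1.5.0-p3 per the submitters' processing notes. The build and the strand setting are not given in the sources used here, and gene coordinates equal GENCODE v29 on GRCh38. A gene with fewer than 2 reads over a table's 6 libraries is absent from it. The 18 columns of counts scaled by size factors and the authors' own columns of log2 fold changes, p-values and adjusted p-values were not used.

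Deposited counts were tested per comparison with edgeR 4.0.16 (R 4.3.3; TMM, filterByExpr, quasi-likelihood F-test, Benjamini-Hochberg adjustment over all genes tested, threshold 0.05) on its 6 libraries, and the code was tested on simulated data. FPKM served for levels between genes and for shares. Alternatives were DESeq2 1.42.0, its size factors in edgeR, no low-count filter, all 9 libraries in 1 fit, a replicate block, shares from counts per length, and each library left out. Named were the 8 genes, measured family members with at least 10 counts, up to 4 called genes per pathway list with the smallest adjusted p, protein-coding genes within 500 kb of the chromosome 2 cluster, and the genes most correlated with each member. Some results that these rules name are not reported here. The members and lists were chosen with earlier results of these data known.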

Additional observations from a re-analysis of the deposited data

How the results depend on the processing

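SCN1A was called in both comparisons with Rapamycin under every alternative run. Over the 16 tested log2 fold changes of the 8 genes and 175 alternatives, 154 kept their direction and their side of the threshold, 15 lost the call and 6 changed sign. Counts divided by gene length could not move the 27 shares, because FPKM divides the same counts by the same lengths. That alternative therefore says nothing about how firm the shares are. Of the 8 genes, 2 to 5 were called in VPA against vehicle without 1 library, 1 to 3 in VPA+Rapamycin against VPA and 2 to 3 in VPA+Rapamycin against vehicle. The first of these guided the choice of the genes, and nothing is read from it. In VPA+Rapamycin against VPA all 9 libraries in 1 fit called 1 of the 8 genes, and 113 genes in all against 1168, and this fit shares 1 estimate of the spread with the vehicle libraries. Without 1 library the genes called in all ran from 3390 to 6710, from 472 to 1203 and from 1295 to 4314 in the same 3 comparisons, against 5568, 1168 and 3307.

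Log2 differences that changed sign did so without 1 library, and none of those tested was called. In VPA against vehicle they were -0.61 to 0.17 for SCN2A, -0.14 to 0.52 for SCN3A and -0.96 to 0.38 for COBLL1. In VPA+Rapamycin against VPA they were -0.14 to 0.18 for SCN3A, -0.0628 to 0.55 for SCN2B and -0.11 to 0.0225 for GPD1L. In VPA+Rapamycin against vehicle they were -0.0257 to 0.73 for SCN2A, -0.0601 to 0.59 for SCN3A, -0.28 to 0.16 for SCN3B, -1.10 to 0.25 for SCN4A, -0.36 to 0.000936 for SCN11A, -0.37 to 0.00717 for CSRNP3 and -0.17 to 0.51 for GALNT3.

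Over all genes tested, the deviations of same-numbered libraries correlated at -0.0595 to 0.0544, -0.0279 to 0.0793 and 0.0628 to 0.159 in the 3 comparisons. With 3 libraries per condition, these values cannot tell whether same-numbered libraries share an origin, and they do not describe single genes. SCN4A was lowest in library 2 of every condition. With a replicate block 3, 2 and 3 of the 8 genes were called. Depth limits SCN2B most, with 1 to 7 counts in vehicle.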
